A study of Mus musculus with 6 samples.

Results

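Septins are GTP-binding cytoskeletal proteins. The 10 mouse genes Sept2 to Sept11 were described in the neuronal cell line HT22, given vehicle or given doxycycline to induce the transcription factor KLF13. The 10 genes were chosen by symbol from the 29493 genes of the count table, and each had 1 row in it. The choice was made with results of the comparison of doxycycline with vehicle already known, so the changes of these genes with doxycycline are given as a description and support nothing by themselves. HT22 is a mouse hippocampal line that proliferates in culture. All 6 libraries came from cells of the genotype HT22-TR/TO-V5Klf13-1, which carry a V5-tagged Klf13 transgene under the tet repressor. Of these, 3 libraries were from cells given vehicle (Vehicle 1 to 3) and 3 from cells given doxycycline at 1 µg/ml (Dox 1 to 3), with 8 hours of treatment. All carried the transgene, so an effect of doxycycline itself and an effect of KLF13 cannot be told apart. The labels do not say that the replicates were separate cultures, so the p-values measure the spread between these libraries, which may be technical.

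Septins polymerise into rods and filaments that lie under the membrane and along actin and microtubules, where they act as scaffolds and diffusion barriers. They are known for their part in cytokinesis, and in neurons for their place at the base of dendritic spines, at branch points and on synaptic vesicles. By sequence they fall into homology groups, and the members of a group can replace each other at the same place in the rod. Among the 10 genes, the SEPT2 group holds Sept2, Sept4 and Sept5, the SEPT6 group holds Sept6, Sept8, Sept10 and Sept11, the SEPT3 group holds Sept3 and Sept9, and the SEPT7 group holds Sept7 alone. SEPT7 is the member that the rods cannot replace with another.

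What the 10 genes share, and where they differ, can be read in the part of their coding sequence that encodes the P-loop, the GTP-binding loop of the G domain. The sequences were taken, for each gene, from the transcript with the longest coding sequence in GENCODE M21, on GRCm38. It need not be the transcript whose full length is used for levels below. Each sequence runs 5′ to 3′ over 24 bases of the coding strand. Capitals mark the codon of the first glycine and the codons of the closing glycine, lysine and serine. They are shown because they let the reader see how much of this stretch the members hold in common.
Sept2: GGTgaatctggtctaGGAAAATCA
Sept3: GGCcagagtggactgGGCAAGTCA
Sept4: GGAgaatctggtctgGGTAAATCC
Sept5: GGTgagtccggcctgGGGAAGTCC
Sept6: GGGgagacaggtttgGGCAAGTCC
Sept7: GGTgaatctggactgGGAAAGTCG
Sept8: GGCgaaactgggattGGCAAGTCC
Sept9: GGGcagagcggcctcGGGAAGTCC
Sept10: GGGgagactggaattGGAAAATCA
Sept11: GGTgagacaggtattGGCAAATCC

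The stretch began at codon 44 in Sept2, at codon 57 in Sept7, and as far in as codon 303 in Sept9, whose protein has a long amino-terminal extension. All 10 sequences were different, and 12 of the 24 positions held the same base in every member. The stretch was located by its pattern of glycine, lysine and serine or threonine codons. The bases that fix glycine and lysine in that pattern are shared by construction, so part of that count was set by the search. Pairs from the same homology group differed at 4 to 7 positions (10 pairs), and pairs from different groups at 4 to 11 positions (35 pairs). Over the whole aligned coding sequence, identity within a group ran from 65.1% to 75.1% (median 70.8%), and between groups from 58.2% to 67.8% (median 61.5%). Identity of this kind left few stretches long enough for a read to match more than 1 septin: of the 50-base words in the exons of the 10 genes, 6 occurred in more than 1 member, and these were shared by Sept2 and Sept7.

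Shared sequence was large for a single member. Sept5 (chr16:18620502-18629954, minus strand) overlaps the platelet receptor gene Gp1bb and the read-through model Gm49601 on the same strand, and 80.4% of its 50-base words also occur in those genes. Its level therefore depends on how the authors' counting divided those reads, and it was also computed with Gp1bb added. Counts of Gm49601 were not looked at, so that sum does not settle how the shared reads were divided. Sept2 (chr1:93478964-93510260, plus strand) is uncertain in another way, since 2 overlapping GENCODE genes carry its symbol and the table has 1 row. For the other 8 members at most 2.25% of the words occurred in another gene. Short antisense overlaps exist for Sept6 (chrX:36911326-36991794, minus strand; 308 bases with Gm15008) and Sept7 (chr9:25252439-25308571, plus strand; 245 bases with Gm48272), and reads from the 2 strands cannot be told apart, since no source used here gives the strand setting.

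The libraries held 38566798 to 52930384 counts, and 18067 genes had enough counts to be tested. Levels are given as CPM, each count divided by the TMM-scaled library size and put on a per-million scale. Klf13 was at 37.0, 36.1 and 39.1 CPM in Vehicle 1 to 3 and at 204.6, 187.7 and 183.6 CPM in Dox 1 to 3, a 5.13-fold rise (log2 fold change 2.36 ± 0.05, SE) in the direction of the labels. Of the 10 neuronal marker genes listed, 5 were in the table. Map2 was near 0 with vehicle, at 0.175 CPM, and Rbfox3, Snap25, Nefl, Nefm and Stmn2 were not analysed here. The summed level of the 5 neuronal markers was 35.0 to 35.8 CPM with vehicle and 16.8 to 18.5 CPM with Dox. Among the fibroblast markers (5 of 5 in the table) the sum was 7497 to 7963 CPM with vehicle and 5915 to 6187 CPM with Dox. The collagen genes Col1a1 and Col1a2 made up nearly all of it. With vehicle Pdgfrb was at 31.2 CPM, Dcn at 5.01 CPM and Lum at 0. Sums over 3 microglial and blood markers were 5.43 to 5.73 CPM and 6.91 to 7.74 CPM, and those over 3 astrocyte markers were at most 0.376 CPM in any library. Ptprc alone, at 5.38 CPM with vehicle, made up nearly all of the microglial and blood sum. Oligodendrocyte markers (3 of 5 in the table) summed to 1.66 to 2.25 CPM with vehicle and 1.03 to 1.17 CPM with Dox. The part of these marker shifts in the septin values was not tested, and in bulk RNA fewer cells of a type and less RNA per cell cannot be told apart.

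With vehicle, the septin transcripts spanned a wide range of levels. To compare genes, CPM was divided by the length of the longest coding transcript in kilobases. Sept7 stood highest at 95.5 ± 1.98 CPM per kb (mean ± SD, n = 3), followed by Sept11 at 85.5 ± 3.36, Sept8 at 51.8 ± 14.7 and Sept9 at 41.9 ± 6.32 CPM per kb. Sept10 held the fifth place at 25.4 ± 1.02 CPM per kb. Below it came Sept5 at 8.03 ± 0.500, Sept2 at 4.20 ± 0.0103, Sept6 at 2.76 ± 0.135 and Sept4 at 0.319 ± 0.0373 CPM per kb. Sept3, a septin known from nerve terminals, was close to 0, with 3 counts in Vehicle 1, none in Vehicle 2 and 3, and 5, 8 and 0 counts in Dox 1 to 3. It was too low to be tested. Sept8 and Sept9 overlapped in their vehicle ranges, and every other pair of neighbours in the order was separate.

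The upper part of this order depends on the length used. With the union of all annotated exons, Sept7 moved from the first place to the fourth, behind Sept11, Sept8 and Sept9. With the median length of the coding transcripts, the order at the top was Sept11, Sept8, Sept7 and Sept9, and Sept2 passed Sept5. With Dox and the main length, the order was the same as with vehicle except that Sept2 (3.54 ± 0.280 CPM per kb) stood above Sept5 (1.17 ± 0.190 CPM per kb).

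With Dox, 7 of the 9 members tested were lower (Sept2, Sept5, Sept6, Sept8, Sept9, Sept10 and Sept11), 1 was higher (Sept4) and 1 did not pass (Sept7), by edgeR's quasi-likelihood test at a Benjamini-Hochberg adjusted p of 0.05 over all 18067 genes. Over all genes tested, 28.8% were called lower and 25.9% higher. By at least 2-fold, 4 members were lower (Sept5, Sept6, Sept8 and Sept10), and 7.51% of all genes tested were. The median log2 fold change was -0.91 over the 9 members and 0.02 over all genes tested. Because the contrast was known when the genes were chosen, nothing is read from these shares. The calls for Sept5, Sept6, Sept9, Sept10 and Sept11 held in every alternative run, and those for Sept2, Sept4 and Sept8 did not.

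**Figure D1:**
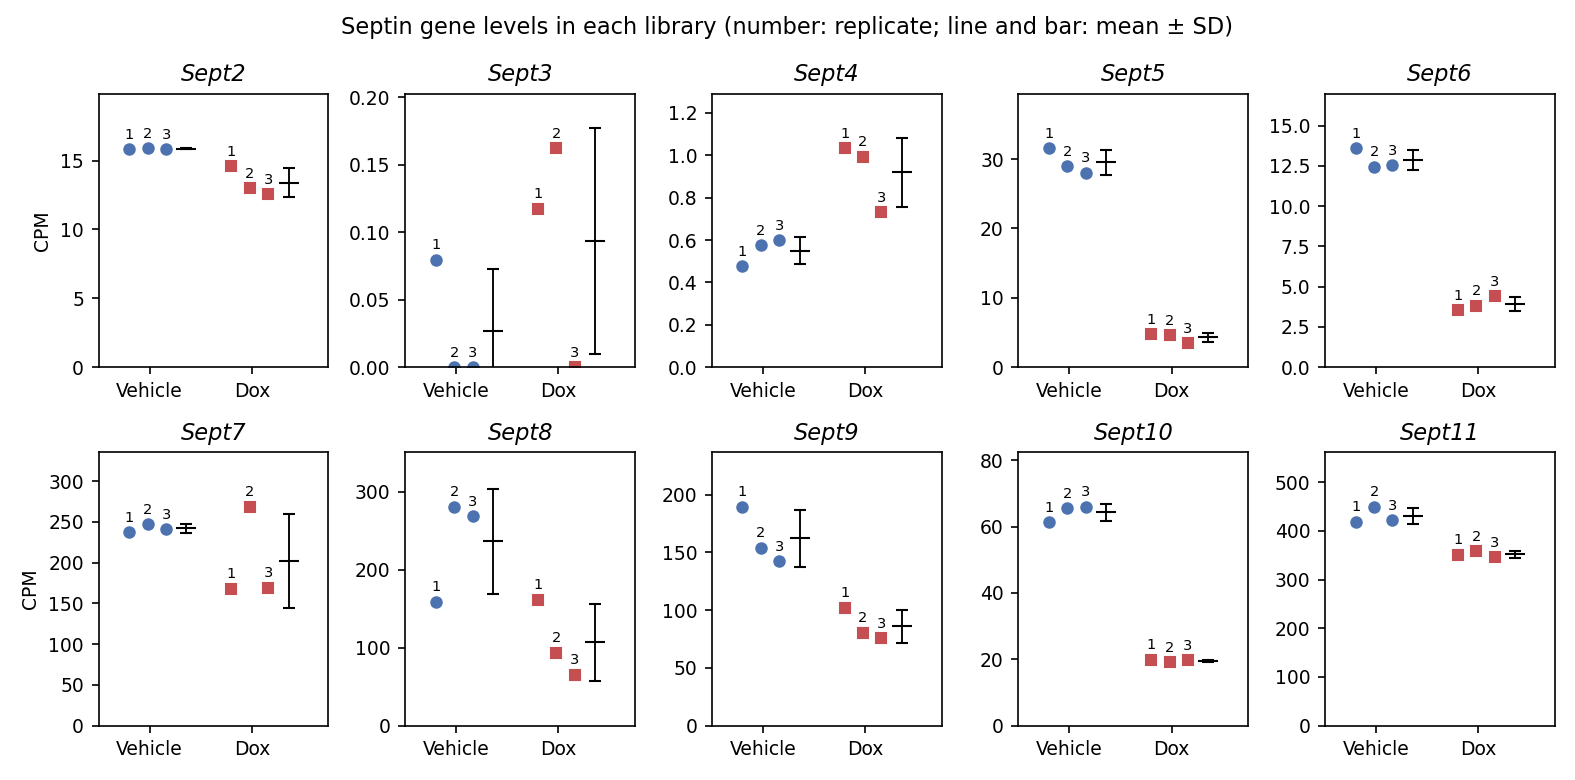
CPM of each of the 10 septin genes in each library, on a linear axis that starts at 0 and differs between panels; circles are Vehicle 1 to 3, squares are Dox 1 to 3, and the line and bar are the mean ± SD (n = 3; a bar below 0 is not drawn). Sept5, Sept6 and Sept10 show groups far apart, while Dox 2 lies above the vehicle libraries for Sept7 and Dox 1 lies among them for Sept8.

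In the SEPT2 group the 3 members behaved differently. Sept5 is a septin of neurons and platelets that binds syntaxin and is found on synaptic vesicles, where it acts against exocytosis. It was at 31.6, 29.0 and 28.0 CPM in Vehicle 1 to 3 and at 4.77, 4.60 and 3.48 CPM in Dox 1 to 3. Every Dox library was far below every vehicle library. Sept5 fell 6.89-fold (log2 fold change -2.78 ± 0.13, SE; from 29.5 ± 1.84 to 4.28 ± 0.699 CPM, SD, n = 3), the largest change among the 9 members tested. Its log2 fold change ran from -2.86 to -2.64 over the alternatives.

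For Gp1bb the counts were 34, 40 and 52 with vehicle and 9, 8 and 65 with Dox. Dox 3 thus had the highest count of Gp1bb and the lowest level of Sept5. When the counts of both genes were added, the sums were 1225, 1246 and 1505 with vehicle and 212, 235 and 227 with Dox. The summed pair fell 6.25-fold (log2 fold change -2.64 ± 0.06, SE).

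Sept2, a core septin of many cell types that lines actin stress fibres and the cleavage furrow, was nearly constant with vehicle at 15.8, 15.9 and 15.8 CPM. With Dox it was at 14.6, 13.0 and 12.6 CPM. The groups did not overlap, and the difference was small, 1.18-fold lower (log2 fold change -0.24 ± 0.06, SE; adjusted p = 0.018 by edgeR). This call was lost under upper-quartile scaling (log2 fold change -0.15, adjusted p = 0.091 by edgeR). It was also lost without Vehicle 3 (adjusted p = 0.053), without Dox 2 (0.058) or without Dox 3 (0.055).

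Sept4 encodes a septin of the sperm annulus and the brain, and its shorter product ARTS is known to bind the apoptosis inhibitor XIAP. It was scarce, with 18, 24 and 31 counts with vehicle and 44, 49 and 34 counts with Dox. On the CPM scale it was at 0.477, 0.576 and 0.598 with vehicle and at 1.03, 0.993 and 0.731 with Dox. All Dox libraries were above all vehicle libraries, and Dox 3 was the nearest to them. Sept4 rose 1.66-fold (log2 fold change 0.73 ± 0.19, SE; adjusted p = 0.016 by edgeR). At this depth the call was not firm: without Dox 1 the adjusted p was 0.055, without Dox 2 it was 0.054, and by DESeq2's Wald test it was 0.116.

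In the SEPT6 group all 4 members were lower, by amounts that ranged from 1.22-fold to 3.29-fold. Sept10 (chr10:59141627-59221847, minus strand) was at 61.3, 65.5 and 66.0 CPM with vehicle and at 19.8, 19.2 and 19.7 CPM with Dox. The spread within each group was far below the gap between them. Sept10 fell 3.29-fold (log2 fold change -1.72 ± 0.04, SE), with a range of -1.75 to -1.62 over the alternatives.

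Sept6, an X-linked septin of axonal filopodia and branch points, was at 13.6, 12.5 and 12.6 CPM with vehicle. With Dox it was at 3.52, 3.83 and 4.41 CPM. The groups were well separated, and the fall was 3.28-fold (log2 fold change -1.71 ± 0.09, SE), close to that of Sept10.

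Sept11 (chr5:93093437-93176447, plus strand), a septin of dendrites and of inhibitory synapses, was the member with the most counts. It was at 419.2, 449.5 and 421.5 CPM with vehicle and at 351.3, 358.4 and 345.3 CPM with Dox. The groups did not overlap, although the fall was only 1.22-fold (log2 fold change -0.29 ± 0.03, SE). Over the alternatives it ran from -0.31 to -0.20.

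Sept8 (chr11:53519257-53549565, plus strand), a septin of presynaptic vesicles that binds VAMP2, varied most between replicates. It was at 159.2, 280.8 and 268.7 CPM in Vehicle 1 to 3. In Dox 1 to 3 it was at 161.3, 93.7 and 65.6 CPM. The groups overlapped, since Dox 1 was slightly above Vehicle 1, while Dox 2 and Dox 3 were below all others. The fitted fall was 2.21-fold (log2 fold change -1.15 ± 0.37, SE; adjusted p = 0.037 by edgeR). Without Vehicle 2, Vehicle 3, Dox 2 or Dox 3 the adjusted p by edgeR was 0.107, 0.100, 0.104 or 0.082, and without Dox 1 the log2 fold change was -1.56 (adjusted p = 0.0085). In the authors' deposited table Sept8 had a log2 fold change of -0.85 with an adjusted p of 0.024 and was not called. DESeq2's Wald test run here gave -1.15 for Sept8 (adjusted p = 0.023). How the deposited fold changes were estimated is not stated here, so they may not be the same measure.

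Sept9 (chr11:117199661-117362325, plus strand), which bundles microtubules and acts late in cytokinesis, was the one SEPT3-group member with appreciable counts. It was at 189.6, 154.1 and 142.7 CPM with vehicle and at 102.0, 80.4 and 75.5 CPM with Dox. Replicate 1 was the highest in both groups, and the groups did not overlap. Sept9 fell 1.89-fold (log2 fold change -0.91 ± 0.15, SE), with a range of -1.05 to -0.79 over the alternatives.

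Sept7, which binds the kinetochore motor CENP-E and shapes dendrites and their spines, was at 237.3, 247.2 and 241.2 CPM with vehicle. With Dox it was at 168.1, 268.5 and 169.5 CPM. Dox 1 and Dox 3 were below every vehicle library and Dox 2 was above them all. The log2 fold change was -0.26 ± 0.18 (SE; adjusted p = 0.28 by edgeR's test). Without Dox 2 it was -0.52, and the adjusted p was 8.7e-05; without Dox 1 it was -0.14 with an adjusted p of 0.58. The direction was the same in every alternative, and the call rests on which Dox library is left out.

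**Figure D2:**
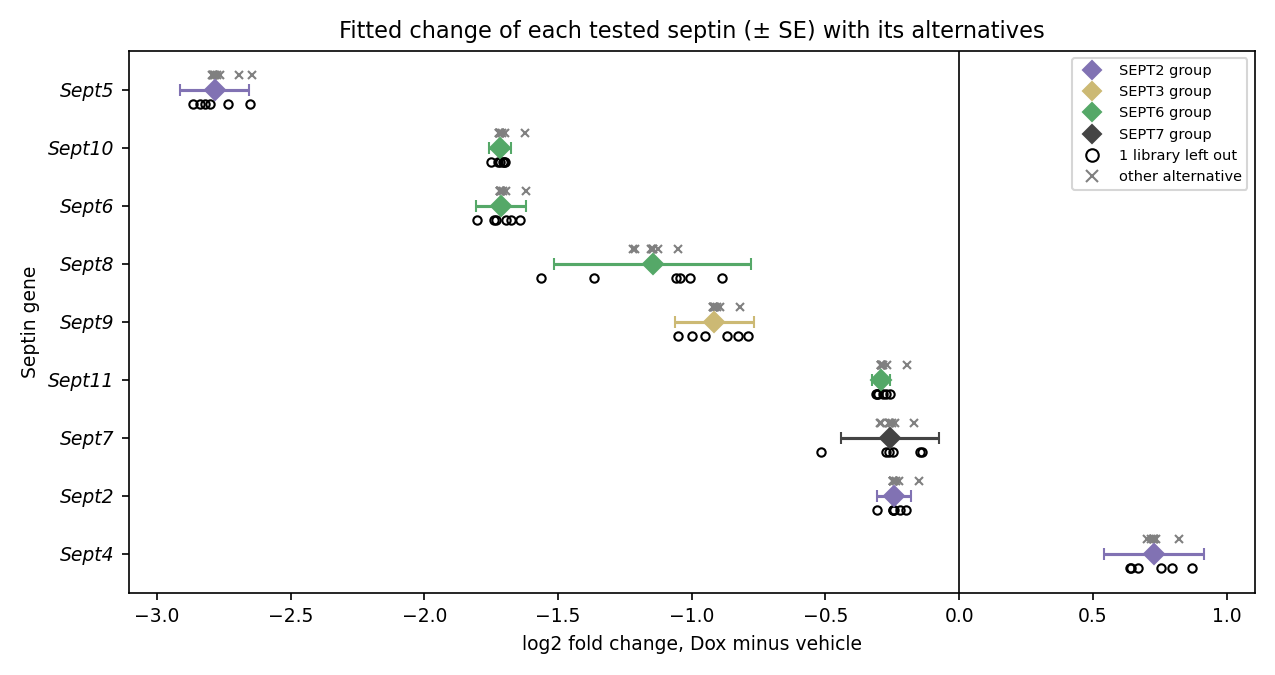
Fitted log2 fold change (Dox minus vehicle, bars ± SE) of the 9 septins tested, coloured by homology group, with open circles for fits without 1 library and crosses for the other alternatives. Sept5 lies farthest to the left at -2.78, Sept10 and Sept6 coincide near -1.72, the circles of Sept8 are the most spread, and Sept4 alone lies to the right of 0.

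The authors' own analysis of these libraries marks genes as called or not, and no source used here gives its threshold. Sept2 and Sept8 were not called there, although their adjusted p was below the threshold used here. For Sept4 and Sept7, also not called, the adjusted p was above it. In the authors' deposited table Sept5 (log2 fold change -2.70), Sept6 (-1.66), Sept9 (-0.89), Sept10 (-1.71) and Sept11 (-0.29) were called. In the authors' deposited table Sept2 (-0.24, adjusted p = 0.023), Sept4 (0.58, adjusted p = 0.116) and Sept7 (-0.24, adjusted p = 0.39) were not called. These 5 called genes are the 5 members whose calls held in every alternative here. Both results come from the same libraries, so the match is not an independent check. Among the alternatives, the stricter adjusted p alone left these 5 members called lower and no member called higher.

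The count table also lists 3 septin genes outside the 10. Sept1, a septin of lymphocytes, had means of 3.69 ± 0.224 CPM (vehicle) and 3.90 ± 0.127 CPM (Dox; SD, n = 3), and did not pass (log2 fold change 0.08 ± 0.07, SE). Sept12, a testis septin, was at 1.48, 2.07 and 1.91 CPM with vehicle and 1.22, 1.42 and 0.967 CPM with Dox, and was called lower (-0.60 ± 0.19, SE; adjusted p = 0.033 by edgeR). It had only 45 to 99 counts per library, and its call was not followed through the alternatives. In the authors' deposited table Sept12 was not called (adjusted p = 0.093). Sept14 had 3 counts in Dox 2 and none elsewhere.

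Since septins assemble together, the levels per length were also summed over the 10 genes. The sum was 301.1, 329.3 and 315.7 CPM per kb in Vehicle 1 to 3 and 212.3, 232.3 and 182.9 CPM per kb in Dox 1 to 3. The groups did not overlap. Its mean was 1.51 times as high with vehicle as with Dox (315.4 ± 14.1 against 209.2 ± 24.9 CPM per kb, SD, n = 3), and 1.42 to 1.70 times under other lengths or without 1 library. With 3 libraries against 3 the smallest two-sided p an exact permutation test can give is 0.1, so no test was run on sums or shares.

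The makeup of the sum also differed, with every share computed over the longest coding transcript of each gene. Shares with other lengths were not computed. For Sept7 that length was 2533 bases, against 11631 for the union of its exons, so its share depends on the length used. Sept7 and Sept11 made up 30.3 ± 0.747% and 27.1 ± 0.568% with vehicle and 37.8 ± 7.27% and 33.7 ± 3.51% with Dox (SD, n = 3). For Sept7 the groups nearly met, with 31.3%, 45.6% and 36.6% in Dox 1 to 3 against 31.1%, 29.6% and 30.2% in Vehicle 1 to 3. Sept10 was at 8.05 ± 0.202% with vehicle and 3.73 ± 0.494% with Dox. Sept5 was at 2.55 ± 0.259% with vehicle and 0.556 ± 0.0488% with Dox. The SEPT6 group as a whole held 52.4 ± 3.54% with vehicle and 49.0 ± 5.33% with Dox, a difference smaller than the spread between replicates.

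Within the SEPT2 group the leading member changed place. Sept5 was 65.8%, 63.4% and 62.7% of the group's summed level in Vehicle 1 to 3 and 22.5%, 23.7% and 20.2% in Dox 1 to 3. Sept2 was 33.5 ± 1.24% of it with vehicle and 67.8 ± 2.81% with Dox. Sept4 was 2.55 ± 0.384% with vehicle and 10.1 ± 0.986% with Dox. The group's sum went from 12.5 ± 0.459 to 5.24 ± 0.529 CPM per kb, so the larger share of Sept2 came with a lower level of Sept2. With the median coding length Sept2 stood above Sept5 already with vehicle.

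Within the SEPT6 group Sept11 was the leading member in all 6 libraries. It was 57.3%, 49.8% and 48.9% of the group's sum in Vehicle 1 to 3 and 61.4%, 71.1% and 74.8% in Dox 1 to 3. Sept10 was 15.4 ± 1.14% with vehicle and 7.64 ± 0.795% with Dox, with no overlap. Sept8 was 30.9 ± 5.96% and 22.4 ± 7.88%, and its groups overlapped. The sum of the group went from 165.4 ± 17.8 to 101.9 ± 11.1 CPM per kb.

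**Figure D3:**
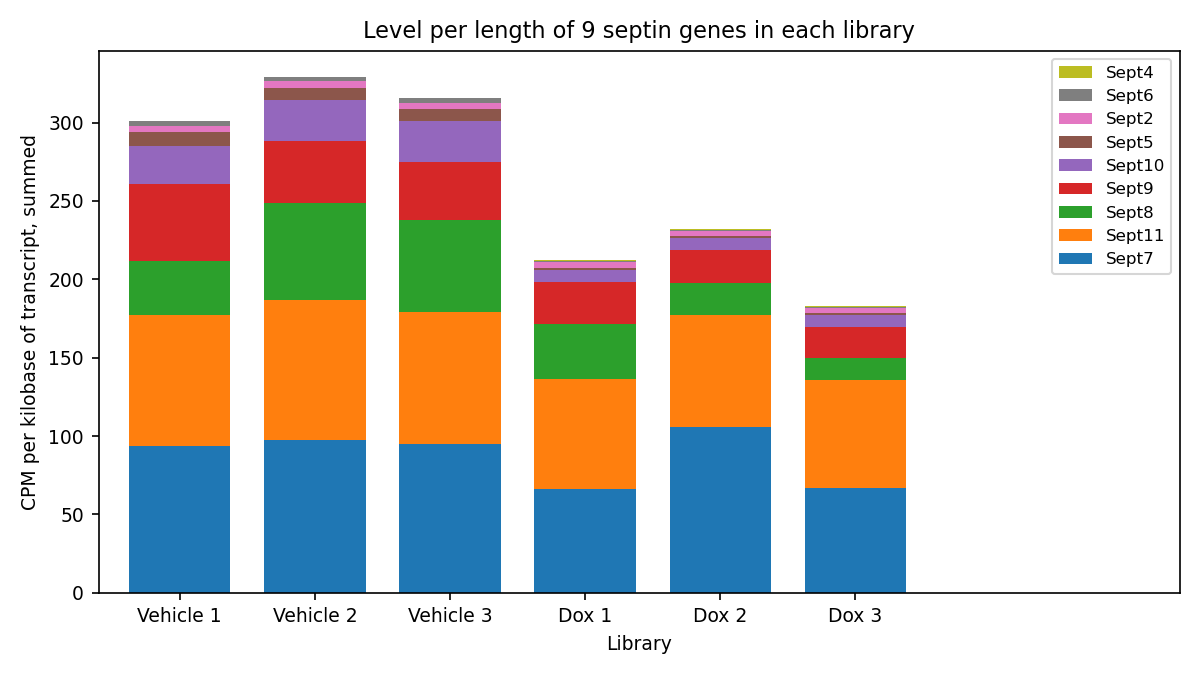
Stacked bars of the septin level per length (CPM per kb of the longest coding transcript, axis from 0) in each of the 6 libraries, with 1 colour per septin (Sept3, close to 0, is not drawn). The vehicle bars reach 301.1 to 329.3 and the Dox bars 182.9 to 232.3, and Sept7 and Sept11 are the 2 largest layers in every bar.

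The sequence upstream of the start could be read for 7 members, which had 16 entries in the RefSeq promoter table (build GRCm38.p6), some of them alternative starts of 1 gene with overlapping windows. KLF13 belongs to the family of Krüppel-like factors, which bind GC-rich and CACCC-type sequences. Searched on both strands over the 250 bases before the start, with overlapping matches allowed, GGGCGG occurred in 9 of the 16 windows and CACCC in 11. Over all 32851 windows of the table, 32.7% held GGGCGG and 52.0% held CACCC. Sept3, Sept5 and Sept6 had no entry. Of the members whose calls held in every alternative, Sept9, Sept10 and Sept11 had entries. The Sept10 window, with 3 matches to GGGCGG and 2 to CACCC, lies wholly within annotated exons of Sept10 and is not shown. The windows of Sept9 and Sept11 are shown, with each match in capitals, the coding strand 5′ to 3′, on GRCm38.p6. For Sept9, the most upstream of its 4 starts is shown. The first window lies at chr11:117199411-117199660 and the second at chr5:93093166-93093415, both on the plus strand and outside annotated exons of their own gene.
Sept9: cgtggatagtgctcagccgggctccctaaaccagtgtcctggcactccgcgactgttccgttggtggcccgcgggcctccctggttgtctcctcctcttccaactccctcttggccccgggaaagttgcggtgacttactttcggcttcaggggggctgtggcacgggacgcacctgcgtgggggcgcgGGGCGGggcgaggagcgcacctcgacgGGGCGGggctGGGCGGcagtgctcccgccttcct
Sept11: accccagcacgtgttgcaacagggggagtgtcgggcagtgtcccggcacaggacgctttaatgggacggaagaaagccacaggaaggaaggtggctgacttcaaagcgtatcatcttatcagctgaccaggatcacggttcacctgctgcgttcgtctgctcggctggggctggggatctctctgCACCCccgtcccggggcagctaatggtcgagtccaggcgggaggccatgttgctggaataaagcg

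The Sept9 window shown held 3 matches to GGGCGG and none to CACCC, at 69.6% G and C. Of the 3 windows at its other starts, 1 held GGGCGG and 2 held CACCC. In the Sept11 window there was 1 match to CACCC and none to GGGCGG, at 60.0% G and C. A match is only a description of these letters, and binding was not measured here.

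Genes that work with septins were taken from 4 lists, with 57 genes in all, of which 52 were tested. Of these, 33 were lower and 12 higher with Dox, where 28.8% and 25.9% of all genes tested were. The lists were written with the Dox results for the septins known.

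The CDC42 effectors, or BORG proteins, bind septins and order their filaments under the control of the GTPase CDC42. All 5 tested genes of that list were lower (median log2 fold change -0.37, against 0.02 over all genes). Cdc42ep4 went from 30.6 ± 1.52 to 11.3 ± 0.266 CPM (SD, n = 3; log2 fold change -1.45 ± 0.05, SE), the largest fall of the list. Cdc42ep2 fell by 0.87 on the log2 scale (SE 0.04), Cdc42ep3 by 0.37 and Cdc42 itself by 0.27. Cdc42ep5 was not analysed here.

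Actin and tubulin form the filaments along which septins lie, and the list also holds the genes of 2 alpha-actinins, which bind actin. Of the 12 tested, 10 were lower, both alpha-actinin genes among them, and 2 higher (median log2 fold change -0.45). The neuronal tubulin gene Tubb3 fell most among the named genes of this list, from 60.7 to 14.7 CPM (log2 fold change -2.05 ± 0.04, SE). Tubb2a went from 37.1 to 11.5 CPM (-1.69 ± 0.07, SE). The abundant Tubb5 fell by 0.49 and Tuba1a by 0.58 on the log2 scale.

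Of the proteins known to bind septins, 15 genes were tested, and 10 were lower, 2 higher and 3 did not pass (median log2 fold change -0.49). The SNARE genes Vamp2, whose product binds SEPT8, and Stx4a, a syntaxin of the plasma membrane, fell by 0.56 (SE 0.02) and 0.87 (SE 0.08) on the log2 scale. Exoc3, a subunit of the exocyst, the complex that tethers vesicles, fell by 0.49. Cenpe, the motor that binds SEPT7, rose from 194.4 to 261.9 CPM (log2 fold change 0.43 ± 0.04, SE).

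The cytokinesis and contractile ring list did not move in 1 direction. Of its 20 genes, 8 were higher, 8 lower and 4 did not pass (median log2 fold change 0.01). The non-muscle myosin heavy chains Myh10 and Myh9 fell by 1.11 (SE 0.03) and 0.71 (SE 0.03) on the log2 scale, and the kinase gene Rock2, which activates them, by 0.84. Incenp, a scaffold of the chromosomal passenger complex, rose from 172.2 to 249.4 CPM (log2 fold change 0.53 ± 0.02, SE).

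**Figure D4:**
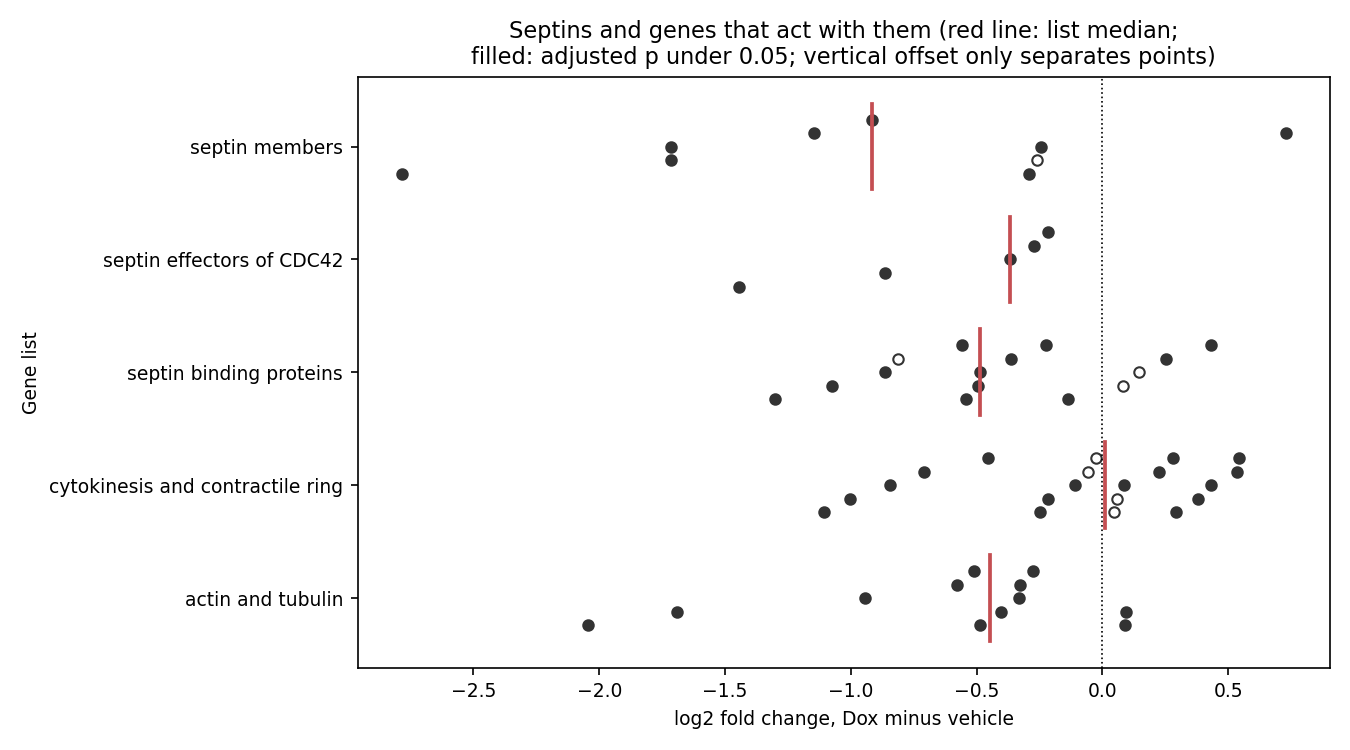
Log2 fold change (Dox minus vehicle) of each tested gene in the 4 partner lists and of the 9 tested septins, with filled and open points for genes that did and did not pass the adjusted p threshold. The CDC42 effectors all lie below 0, and the cytokinesis genes lie on both sides of it with a median of 0.01.

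Sept5 had the largest change of the 9 members tested, and the genes most like it were ranked by Pearson's r of log2 CPM over the 6 libraries, among genes of at least 2 CPM on average. The 3 highest were Unc119 (r = 0.9998), a lipid-binding trafficking protein, Eno2 (r = 0.9997), the neuronal enolase, and Cmpk1 (r = 0.9996), a nucleotide kinase. These values rest on 6 libraries that fall into 2 separated groups, so they are given with no p. The sizes of the steps differed, since Unc119 went from 6.82 to 0.687 CPM, Eno2 from 4.80 to 2.64 CPM and Cmpk1 from 133.7 to 108.9 CPM.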

How the data were processed

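RNA sequencing of 6 libraries, 3 with vehicle and 3 with Dox, was used. Per the labels' protocols total RNA was extracted with TRIzol. HISAT2 2.1.0, StringTie 1.3.3, FastQC 0.11.3, DESeq2 and the build GRCm38 are listed in the submitters' processing notes, with no role or order. No source used here gives the annotation, the strand setting or the rule for reads matching more than 1 gene.

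A table deposited by the authors holds raw counts per gene symbol for 29493 genes, with 38566798 to 52930384 counts per library, and 0 columns of samples were left unused. The authors also deposited a table of Dox against vehicle that holds, per the file headers, a mean signal (normalized counts), a log2 fold change with its error, a score (the test statistic) and p-values.

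Counts were filtered with filterByExpr, which left 18067 genes, scaled by TMM (factors 0.970 to 1.03) and tested with edgeR 4.0.16's quasi-likelihood test (R 4.3.3, limma 3.58.1) over the 6 libraries with no covariate and a Benjamini-Hochberg threshold of 0.05. The adjusted p-values in the text are from this test unless another tool is named. Alternatives were upper-quartile and DESeq2 1.42.0 scaling, the DESeq2 Wald test, limma-voom, no filter, a mean of at least 5 CPM, a stricter adjusted p (0.01), the replicate number as a block, leaving out each library, and other transcript lengths. The sum of Sept5 and Gp1bb and the alternatives for the summed septin level were added after the data were seen. Replicates differed by more than sampling noise, with a chi-square of 12.1 to 15.1 per degree of freedom.

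The members and the lists were chosen with earlier results of these data known. The genes named are all septins in the table, genes that overlap a septin, Klf13, and some of the cell type markers. Up to 4 tested genes of each partner list with the smallest p are also named, with the 3 genes most like the septin with the largest change. Gene models were GENCODE M21; promoters were RefSeq's. Levels of different genes were compared per kilobase of the longest coding transcript.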

Additional observations from a re-analysis of the deposited data

How the results depend on the processing

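The number of septins called higher, 1 in the analysis as reported, was 0 with the DESeq2 Wald test, with a mean of at least 5 CPM (where Sept4 was not tested) and at an adjusted p of 0.01, and 0 to 1 when 1 library was left out. The number called lower was 5 to 7 over the alternatives. Partner genes called higher numbered 7 in place of 12 at an adjusted p of 0.01. In the order of level per length, 4 members stood at another position with the exonic union length and 5 with the median coding transcript length. With upper-quartile scaling the median over all genes went from 0.02 to 0.11 (log2) and the calls over all genes from 4687 higher and 5203 lower to 6246 higher and 4457 lower; over all alternatives 3477 to 6246 were higher and 4176 to 5264 lower. With the replicate number as a block, 1 septin was higher and 6 lower, with 4602 genes higher and 5097 lower in all, and Sept8 had a log2 fold change of -1.21 (adjusted p = 0.089 by edgeR). Libraries with the same number did not deviate together (correlations 0.0619, 0.0252 and -0.0644 over 14652 genes), which does not pair the samples. No fold change of a septin reversed in any alternative. Low depth limits Sept3 and Sept4, with at most 8 and 49 counts in a library; the limit for Sept7 and Sept8 was the spread between replicates.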
